A study of Caenorhabditis elegans with 6 samples.

Results

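The genes of the proteasome were examined in RNA sequencing of whole Caenorhabditis elegans of 2 genotypes, the wild-type strain N2 and the mutant bcf-1(ylf1). The members were the rows of the deposited expression table whose RefSeq symbol begins with pas, pbs, rpt or rpn followed by a number, which gave 33 of 20894 rows. They were 7 alpha-ring genes (pas), 7 beta-ring genes (pbs), 6 ATPase genes (rpt), 4 other genes of the base and 9 genes of the lid (rpn). All animals were labelled as adults and were grown on Escherichia coli OP50, the standard food bacterium, and the groups differed only in the genotype given. Each genotype had 3 libraries from replicates generated and handled independently. What the ylf1 allele changes in bcf-1, which encodes the intestinal bacteria-binding protein named in the series title, is not stated in the labels. RNA came from whole animals, so fewer cells of a type and less RNA per cell cannot be told apart.

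The proteasome is the protease complex that degrades proteins tagged with ubiquitin in the cytosol and nucleus. Its barrel-shaped 20S core is built of alpha rings, which gate the entry, and beta rings, of which the pbs-1, pbs-2 and pbs-5 products carry the active sites. The 19S regulatory particle caps the core: its base binds ubiquitin and unfolds substrates with a ring of ATPases, and its lid removes the ubiquitin chain. In C. elegans, subunit genes can be induced together by SKN-1A, a form of the transcription factor SKN-1 that is activated when proteasome function falls short.

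Levels are given in FPKM, in which a gene's fragments are divided by transcript length and by the size of its library. This division alone did not settle how libraries compare, and results under other scalings are given below. The unit was inferred from the table. Library totals ran from 659249 to 687573 FPKM, and how deeply the libraries were sequenced is unknown. bcf-1 itself lay at 374, 412 and 499 FPKM in N2 and at 63.7, 72.1 and 60.01 FPKM in the mutant. The summed level of 7 adult markers, the vitellogenin genes and the adult collagen gene col-19, was 2950 to 4564 FPKM in the N2 libraries and 24.8 to 63.1 FPKM in the mutant libraries, and all 7 fell. Transcripts that define the adult were thus nearly missing from the libraries labelled as mutant adults. The summed level of 12 sperm markers was 253 to 397 FPKM in N2 and 385 to 537 FPKM in the mutant (9 of 12 rose), and that of 10 oocyte markers was 473 to 1239 and 445 to 508 FPKM (3 of 10 fell). Summed germline markers lay at 490 to 892 FPKM in N2 and 863 to 920 FPKM in the mutant (3 of 12 rose). Intestine markers summed to 7508 to 9955 and 8793 to 10632 FPKM (7 of 10 fell, 1 rose). Most of that sum was asp-1, the marker that rose, with means of 5210 FPKM in N2 and 7520 FPKM in the mutant. The intestine sum therefore does not show the fall of the other markers. Pharynx markers summed to 53.5 to 64.02 and 239.5 to 266 FPKM (5 of 6 rose). Over all tested genes 34.6% rose and 15% fell (limma, adjusted p under 0.05). These markers differed between the same groups as every result below, and their part in the results was not tested.

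Most proteasome subunit transcripts were abundant in every library of both genotypes, and with the values as deposited nearly all had small changes between N2 and the mutant. The size of these changes depends on the scaling, as given below. Small changes were mostly missed in simulated data, so equal levels are not shown. Of the 33 members, 31 passed the filter on low values (at least 1 FPKM in at least 3 libraries). With limma on log2(FPKM + 1), an adjusted p under 0.05 over all 13576 tested genes was reached by 1 member, rpn-13, which rose, and by 0 members that fell, while 49.6% of all tested genes passed the same threshold (34.6% higher, 15% lower). The log2 changes of the other 30 members, mutant minus N2, lay between -0.29 and 0.24, and each had a 95% confidence interval that included 0. Groups that did not overlap were found in 6 of the 31 members, 3 with the mutant higher and 3 with N2 higher, against 58.4% of all tested genes (40.4% and 18%). As deposited, changes smaller than 0.3 log2 units in either direction were found in those 30 of 31 members and in 35.4% of all tested genes. That limit was not among the planned settings and lies just beyond the largest of the 30 changes, -0.29. The count of members therefore follows from the limit. After median-ratio scaling the members' median was itself -0.31. With the values as deposited, the intervals of 30 members lay entirely within 1 log2 unit of 0.

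The median change of the tested members was -0.04, against a median of 0.24 over all tested genes. Of the 31 members, 29 lay below that all-gene median, which by definition parts all tested genes into equal numbers. Whether the members appear level or lower therefore depends on how the libraries are scaled. With the values as deposited the median was -0.04. After median-ratio scaling, which brought the all-gene median to 0.00 by dividing the mutant libraries by factors that averaged 1.20 times those of N2, the members' median was -0.31, 9 members fell and 0 rose (23% of all tested genes fell and 22.3% rose under that scaling) and rpn-13 no longer passed (log2 change 0.51, limma adjusted p = 0.0643). After quantile normalisation their median was 0.08, close to the 0.07 of all genes, 3 members rose and 0 fell (24% of all tested genes rose and 20.9% fell). With columns rescaled to equal sums 2 members rose, rpn-13 and rpn-6.2, and 37% of all tested genes did.

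**Figure D1:**
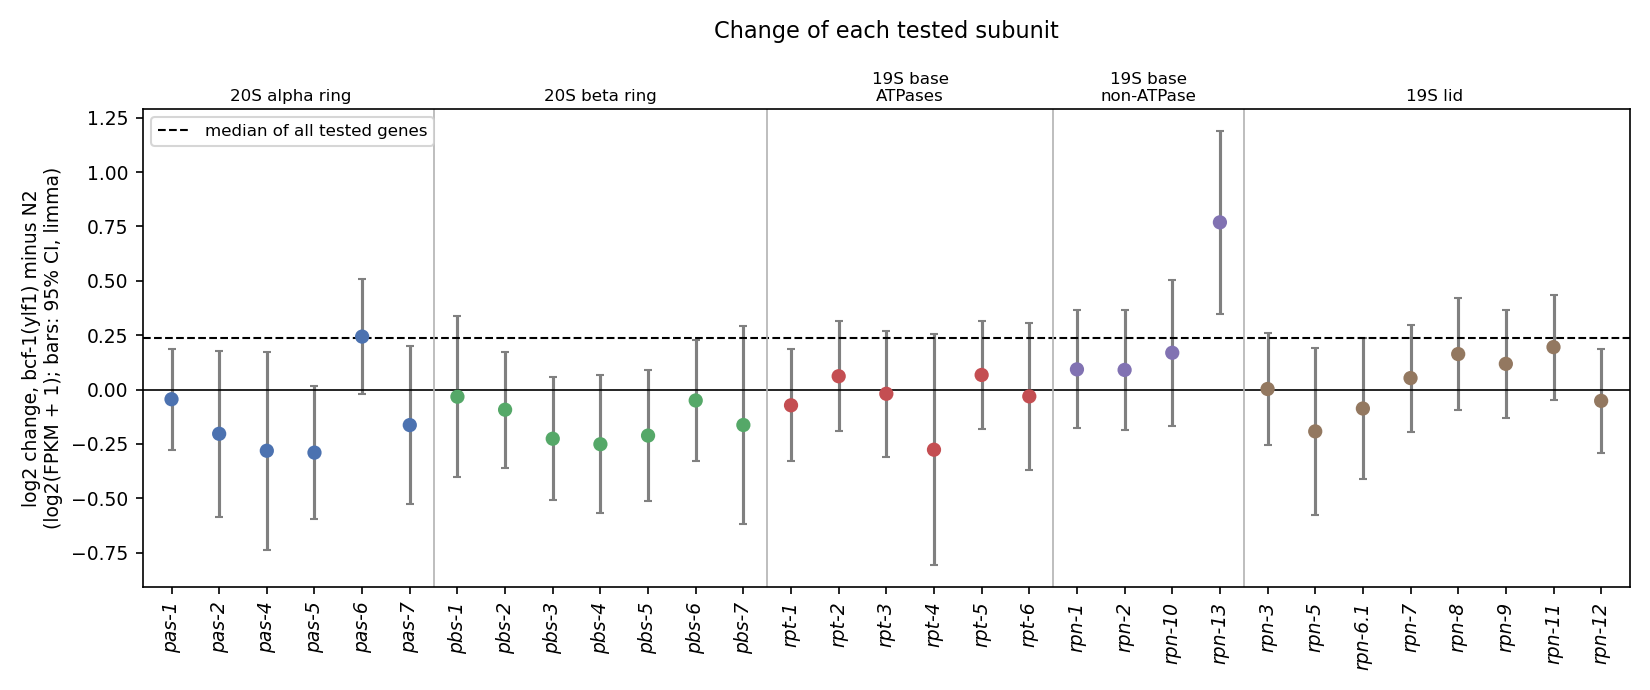
Log2 change of the 31 tested subunit genes, bcf-1(ylf1) minus N2 on the log2(FPKM + 1) scale, with 95% confidence intervals from limma (bars), grouped by the part of the complex; the dashed line is the median of all tested genes, 0.24. The interval of rpn-13 lies above 0, and those of the other 30 members include 0.

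**Figure D2:**
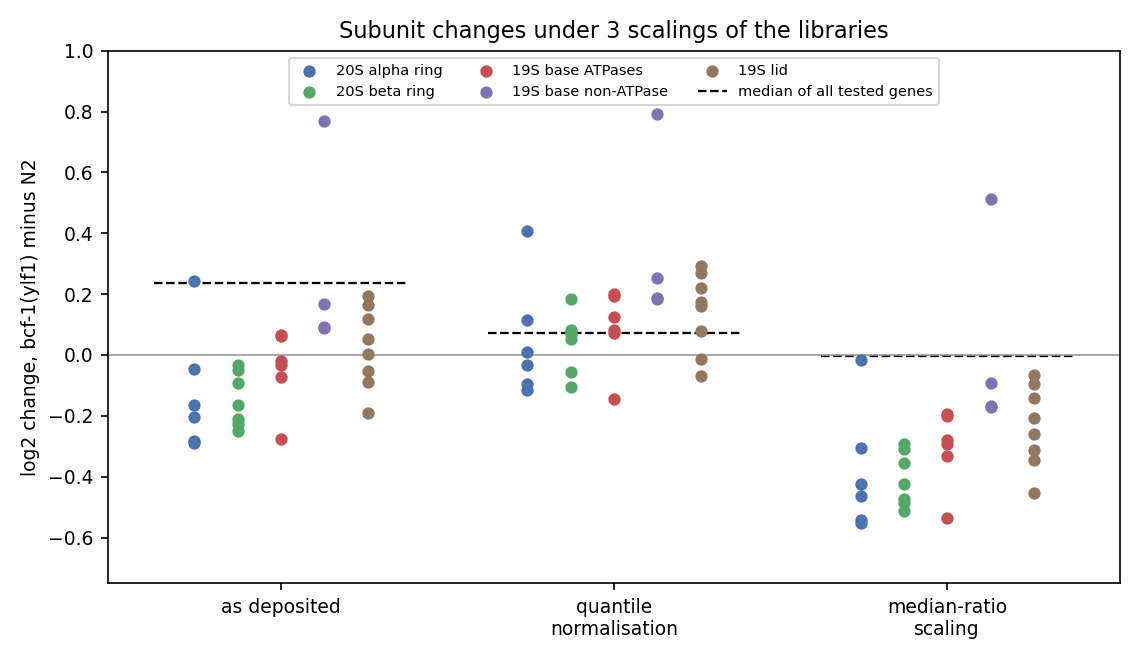
Log2 changes of the 31 tested subunit genes (points, coloured by the part of the complex) with the values as deposited, after quantile normalisation and after median-ratio scaling of the libraries; dashed lines mark the median of all tested genes. The members' medians were -0.04, 0.08 and -0.31, and rpn-13 is the highest point in each column.

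Among themselves, the tested members spanned a narrow range of levels. In N2 their mean levels ran from 41.1 FPKM (rpn-13) to 239 FPKM (pbs-5) with a median of 145 FPKM, and 26 of 31 exceeded 100 FPKM. In the mutant they ran from 69.05 FPKM (rpn-13) to 208 FPKM (pbs-5) with a median of 139 FPKM, and 29 exceeded 100 FPKM. The same genes stood at either end in both genotypes, and the range from lowest to highest was 5.83-fold in N2 and 3.01-fold in the mutant. By N2 level, 29 of the 31 members lay in the top 10% of all tested genes. The order of levels was alike in both genotypes (Spearman correlation 0.927 across 31 genes, which share libraries). The members with lower N2 levels had the higher changes (Spearman correlation -0.688 between the change and the N2 level, in which N2 values enter both sides). Together the 33 members held 0.711%, 0.666% and 0.632% of the summed FPKM in the N2 libraries and 0.71%, 0.6% and 0.682% in the mutant libraries, and the genotypes overlapped.

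The genes are spread over the autosomes. By the RefSeq annotation of WBcel235, 10 lie on chromosome I, 7 on II, 8 on III, 3 on IV and 5 on V, and 0 lie on X, which holds 13.7% of the annotated rows of the table.

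**Figure D3:**
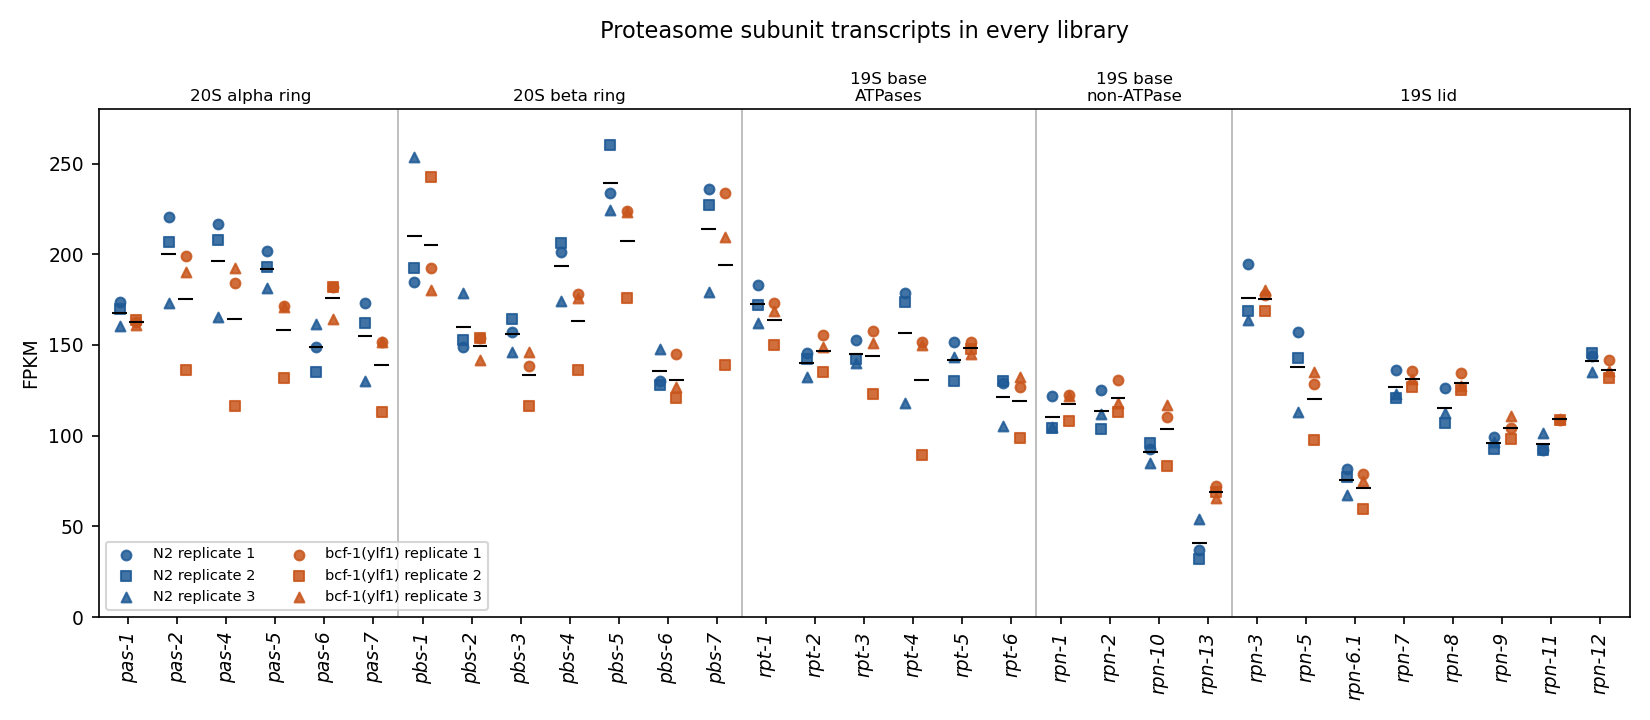
Level of each tested subunit gene in FPKM in every library (N2 in blue, bcf-1(ylf1) in orange, with a marker shape for each replicate; black lines are means of 3 libraries), grouped by the part of the complex. Most members lie between 100 and 260 FPKM, and the genotypes overlap in all but pas-5, pas-6, pbs-3, pbs-5, rpn-11 and rpn-13. The lowest member is rpn-13, and bcf-1(ylf1) replicate 2 is often the lowest point.

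The alpha ring, which forms the gate of the core, had 6 tested genes, of which 0 passed the threshold. pas-1 was the steadiest of them, at 173, 170 and 160 FPKM in N2 and 163, 164 and 161 FPKM in the mutant. pas-5 (chromosome I, 10566350 to 10567300) lay at 202, 193 and 181.5 FPKM in N2 and 171, 132 and 171 FPKM in the mutant, so that every N2 library was above every mutant library. Its log2 change was -0.29 (SE 0.13, limma adjusted p = 0.102), the lowest of all members. pas-6 (chromosome V, 5583161 to 5584343) went the other way, at 149, 135 and 162 FPKM in N2 against 182, 182 and 164 FPKM in the mutant, also without overlap. Its log2 change of 0.24 (SE 0.12, limma adjusted p = 0.111) was the only positive one among the 13 tested core genes as deposited; it passed after quantile normalisation (0.41, limma adjusted p = 0.0169) and was -0.02 after median-ratio scaling. pas-2, pas-4 and pas-7 had log2 changes of -0.20, -0.28 and -0.16 with overlapping groups, and fell, as pas-5 did, after median-ratio scaling alone.

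The beta ring holds the proteolytic sites, and 0 of its 7 genes passed the threshold. pbs-5, which encodes the subunit with chymotrypsin-like activity, was the most abundant member, at 234, 260 and 225 FPKM in N2 and 224, 176 and 223 FPKM in the mutant. Its groups did not overlap but nearly touched, and its log2 change was -0.21 (SE 0.13, limma adjusted p = 0.213). pbs-1, for the caspase-like site, lay at 185, 193 and 254 FPKM in N2 and 193, 242 and 180 FPKM in the mutant, with overlap. pbs-2, for the trypsin-like site, lay at 149, 153 and 178.5 FPKM in N2 and 154, 154 and 141.5 FPKM in the mutant, also with overlap. Of the beta subunits without an active site, pbs-3 was higher in every N2 library than in any mutant library (157.3, 164.5 and 146.1 against 138.3, 116.5 and 146 FPKM; log2 change -0.23, SE 0.12, limma adjusted p = 0.161), while pbs-4, pbs-6 and pbs-7 overlapped, with log2 changes of -0.25, -0.05 and -0.16. As deposited, all 7 beta genes had negative changes, but after quantile normalisation pbs-1, pbs-2, pbs-5, pbs-6 and pbs-7 turned positive, as pbs-1 did with columns rescaled to equal sums. After median-ratio scaling pbs-3, pbs-4 and pbs-5 fell.

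The base of the regulatory particle carries the 6 ATPases that unfold substrates and open the core, and 0 of 6 passed. Their mean levels were 121 to 172 FPKM in N2 and 119 to 164 FPKM in the mutant. rpt-2, rpt-3, rpt-5 and rpt-6 had log2 changes between -0.03 and 0.07, and rpt-1 of -0.07. rpt-1 was the only ATPase gene that fell after median-ratio scaling (-0.33, limma adjusted p = 0.0411). rpt-4 had the largest standard error of all tested members (0.23), at 178, 174 and 118 FPKM in N2 and 152, 89.6 and 150 FPKM in the mutant, and its change of -0.28 had an interval from -0.81 to 0.26. Of the base subunits that are not ATPases, the scaffold genes rpn-1 and rpn-2 had changes of 0.09 each, and the ubiquitin receptor gene rpn-10 of 0.17 (limma adjusted p = 0.545, 0.562 and 0.367). All 3 of these turned negative after median-ratio scaling.

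rpn-13 (C56G2.7; chromosome III, 6340113 to 6341928 on the minus strand, WBcel235) encodes the other dedicated ubiquitin receptor of the base, which in mammals and worms docks the deubiquitinase called UCH37 or UBH-4. It lay at 36.9, 32.05 and 54.3 FPKM in N2 and at 72.3, 69.02 and 65.8 FPKM in the mutant. N2 replicate 3 was the highest of its group, and every mutant library was higher still. The mean rose from 41.1 ± 11.7 to 69.05 ± 3.23 FPKM (SD, n = 3 each), 1.68-fold, with a log2 change of 0.77 (SE 0.19, 95% interval 0.35 to 1.19, limma adjusted p = 0.00828). The call was kept without each library in turn, with changes from 0.61 to 0.98, and was lost after median-ratio scaling, as given above. Set against the median tested member of the same library, rpn-13 stood at 0.243, 0.225 and 0.388 in N2 and 0.477, 0.552 and 0.451 in the mutant, again without overlap. Multiplying a whole library by a constant, as median-ratio scaling does, cannot alter this ratio. Quantile normalisation can, and the ratio was not recomputed after it. Its annotated exons overlap those of 0 other protein-coding genes. Its partner ubh-4 lay at 88, 83.1 and 67.6 FPKM in N2 and 75.2, 61.7 and 74.8 FPKM in the mutant (log2 change -0.17, SE 0.14, limma adjusted p = 0.359).

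The lid had 8 tested genes and 0 passed. rpn-11, whose product is the metalloprotease that cuts the ubiquitin chain from the substrate, lay at 92.1, 92.1 and 101 FPKM in N2 and 109, 109 and 109 FPKM in the mutant. These groups did not overlap (log2 change 0.20, SE 0.11, limma adjusted p = 0.156; 0.29 with limma adjusted p = 0.0443 after quantile normalisation, and -0.06 after median-ratio scaling). rpn-8, the partner of rpn-11 in the lid, and rpn-9 had changes of 0.16 and 0.12. The scaffold genes rpn-3, rpn-7 and rpn-12 had changes of 0.00, 0.05 and -0.05. rpn-5 was the only lid gene that fell after median-ratio scaling (-0.45, limma adjusted p = 0.0319). As deposited it had the lowest change of the lid, -0.19, with 157, 143 and 113 FPKM in N2 and 128.5, 97.5 and 135 FPKM in the mutant. dss-1, a small lid subunit whose name lies outside the pattern, lay at 48.6, 55.2 and 45.9 FPKM in N2 and 58.1, 43.1 and 58.7 FPKM in the mutant (log2 change 0.08, limma adjusted p = 0.67).

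The lid subunit RPN-6 has a pair of genes that stood far apart. rpn-6.1, known in the worm for its level-dependent effect on proteasome activity, lay at 81.5, 77.2 and 67.4 FPKM in N2 and 79.0, 59.7 and 74.8 FPKM in the mutant, with a log2 change of -0.09 (SE 0.14, limma adjusted p = 0.637). Its paralogue rpn-6.2 (F59B2.5; chromosome III, 8999817 to 9001999, minus strand) lay at 0.309, 0.126 and 0.174 FPKM in N2 and 1.23, 0.811 and 2.32 FPKM in the mutant, a 7.16-fold higher mean without overlap. It missed the filter on low values. With no filter, under which 27% of all genes rose, its log2 change, which the added 1 FPKM compresses at this level, was 0.99 (SE 0.21, limma adjusted p = 0.0110). Since rpn-6.1 is so much more abundant and how reads shared by similar genes were handled is not known here, the value of rpn-6.2 is uncertain. Sperm markers, whose summed level is given above, were higher in the mutant too, and their part in this value was not tested.

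The remaining alpha-ring gene, pas-3 (Y110A7A.14; chromosome I, 5105110 to 5106048, minus strand), was listed at or near 0 in every library, from 0.000693 to 0.0531 FPKM. The other 6 alpha genes lay between 113 and 221 FPKM in every library, and the ring needs a product of each of the 7 genes, so the listed values of pas-3 are given here as a property of the table and not as a level. Its annotated exons overlap those of 0 other protein-coding genes. Of the SKN-1A pathway genes, sel-9 was likewise listed between 0 and 0.158 FPKM in 5 libraries and at 8.87 FPKM in mutant replicate 2.

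The core and the regulatory particle differed slightly in their change between genotypes, and also in transcript length and in N2 level. As deposited, 12 of 13 tested core genes had a negative change and 11 of 18 tested regulatory genes a positive change, with medians of -0.16 and 0.06. The medians were -0.42 and -0.20 after median-ratio scaling and 0.05 and 0.18 after quantile normalisation, so the sign of each flips with the scaling and the core stays below the regulatory particle under all 3. The summed level of the 14 core genes was 2426, 2406 and 2276 FPKM in N2 and 2316, 1927 and 2235 FPKM in the mutant. That of the 19 regulatory genes was 2348, 2172 and 2069 FPKM in N2 and 2363, 2035 and 2326 FPKM in the mutant. The ratio of the regulatory sum to the core sum within a library was 0.968, 0.903 and 0.909 in N2 and 1.02, 1.06 and 1.04 in the mutant. Multiplying a library by a constant does not change this ratio, but quantile normalisation can, and the ratio was not recomputed after it. All mutant libraries were above all N2 libraries, by 1.12-fold in the means (0.927 ± 0.0359 against 1.04 ± 0.0178, SD, n = 3 each). Without rpn-13 the ratio was 0.953, 0.89 and 0.885 in N2 and 0.9893, 1.02 and 1.011 in the mutant. The annotated exons of the tested core genes add up to 801 to 1059 bases and those of the tested regulatory genes to 855 (rpn-12) to 3171 bases (rpn-1), and across the 31 tested members the change correlated with exon length (Spearman correlation 0.46). Median N2 levels were 180 and 194 FPKM in the alpha and beta rings. They were 143, 101 and 121 FPKM in the ATPases, the other base genes and the lid. The change correlated with N2 level as well (Spearman correlation -0.688, given above). The parts of transcript length and of level in the ratio were not tested. No test is given for these sums over chosen genes.

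**Figure D4:**
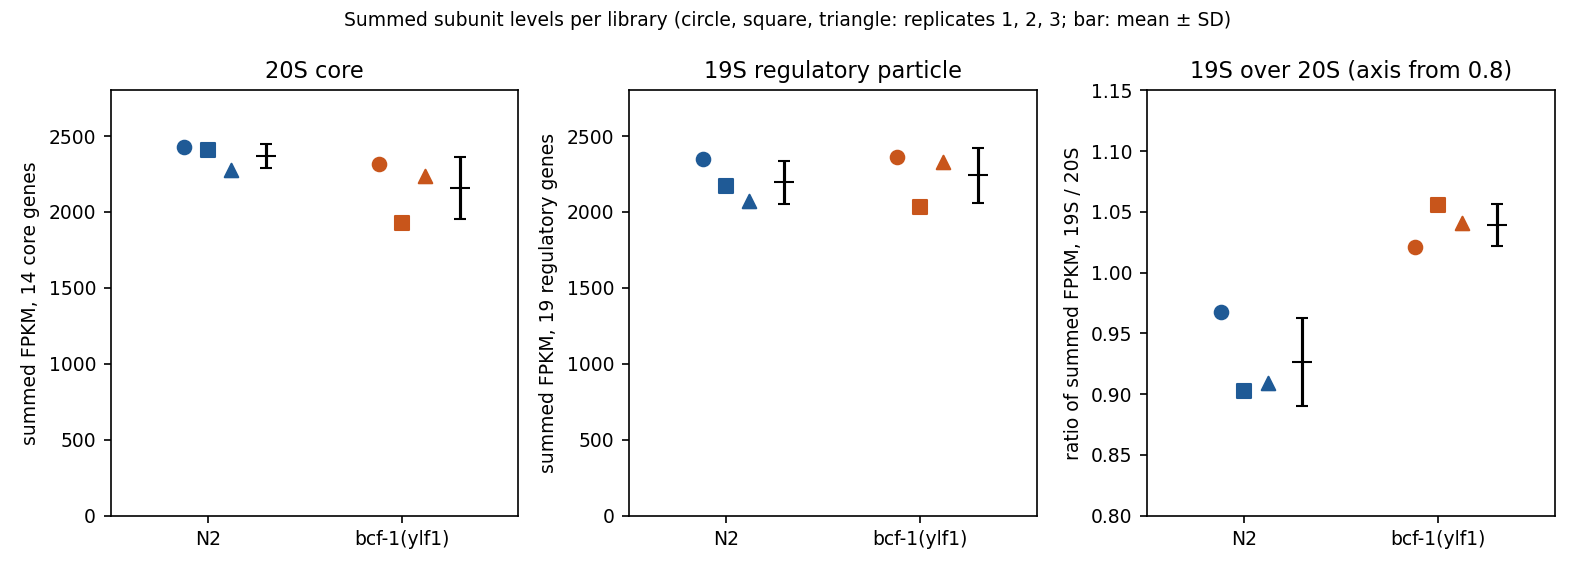
Summed FPKM of the 14 core genes and of the 19 regulatory particle genes, and the ratio of the second sum to the first, in each library (N2 in blue, bcf-1(ylf1) in orange; bars are mean ± SD of 3 libraries; the ratio axis starts at 0.8). The sums overlap between genotypes, while the ratio is 0.903 to 0.968 in N2 and 1.02 to 1.06 in the mutant.

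In each genotype 1 library was lower than the others in many of the same subunits. Of the 31 tested members, 19 had their lowest N2 value in N2 replicate 3 and 25 had their lowest mutant value in mutant replicate 2. On the log2(FPKM + 1) scale, 22 of 31 members were lower both in N2 replicate 3 than in the mean of the other N2 libraries and in mutant replicate 2 than in the mean of the other mutant libraries, against 47.9% of all tested genes. The order of the departures also matched gene by gene, with a Spearman correlation of 0.891 across the 31 members and 0.491 across all 13576 tested genes. The Pearson correlation, which weighs the size of each departure, was 0.823 across the members. Such a match was not particular to the members. The Spearman correlation was 0.879 in the oocyte markers, 0.8225 in deubiquitinase genes and 0.809 in ribosomal protein genes. Pearson correlations in these lists were 0.80, 0.83 and -0.57, so the ribosomal protein genes matched in order only. The Spearman correlation was lower in the sperm markers (0.5035) and in conjugating enzyme genes (0.0311), with Pearson correlations of 0.65 and -0.77. This pair of libraries was picked after the data were seen. Of all pairs of an N2 and a mutant library, it had the highest correlation of deviations over all tested genes (Pearson 0.336). The counts and correlations given here come from the same values. The genes within a library also share its preparation and sequencing, so these figures only describe these libraries.

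The members furthest below their group in mutant replicate 2 were rpt-4, pas-4, pbs-7 and pas-2, by 0.75, 0.69, 0.67 and 0.51 log2 units, and these 4 were also lower in N2 replicate 3. pas-4 lay at 216, 208 and 165 FPKM in N2 and 184, 116.5 and 192 FPKM in the mutant. pbs-7 lay at 236, 227 and 179 FPKM in N2 and 234, 139 and 210 FPKM in the mutant. By contrast, pbs-1, pbs-2 and pas-6 were higher in both of these libraries than in the others of their group, and pbs-1 by 0.43 and 0.38 log2 units. Spearman correlations of the departure with annotated exon length were 0.03 for N2 replicate 3 and 0.07 for mutant replicate 2, while that of the change between genotypes with exon length was 0.46, across the same 31 genes. Other lists, described below, ranged widely in the share of genes lower in both libraries. Shares like that of the members or higher were found in 13 of 18 deubiquitinase genes (72.2%) and 5 of 7 partners outside the naming pattern (71.4%). The same held for 5 of 5 COP9 signalosome genes and 3 of 3 ubiquitin and activating enzyme genes. Smaller shares were found in 5 of 8 chaperonin CCT genes (62.5%) and 34 of 78 ribosomal protein genes (43.6%). The smallest were 4 of 22 conjugating enzyme genes (18.2%) and 0 of 7 adult markers. With N2 replicate 3 and mutant replicate 2 left out together, a choice made after the data were seen, rpn-13 was again the only member called (33.6% of all tested genes were), and the members' median change was -0.02.

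**Figure D5:**
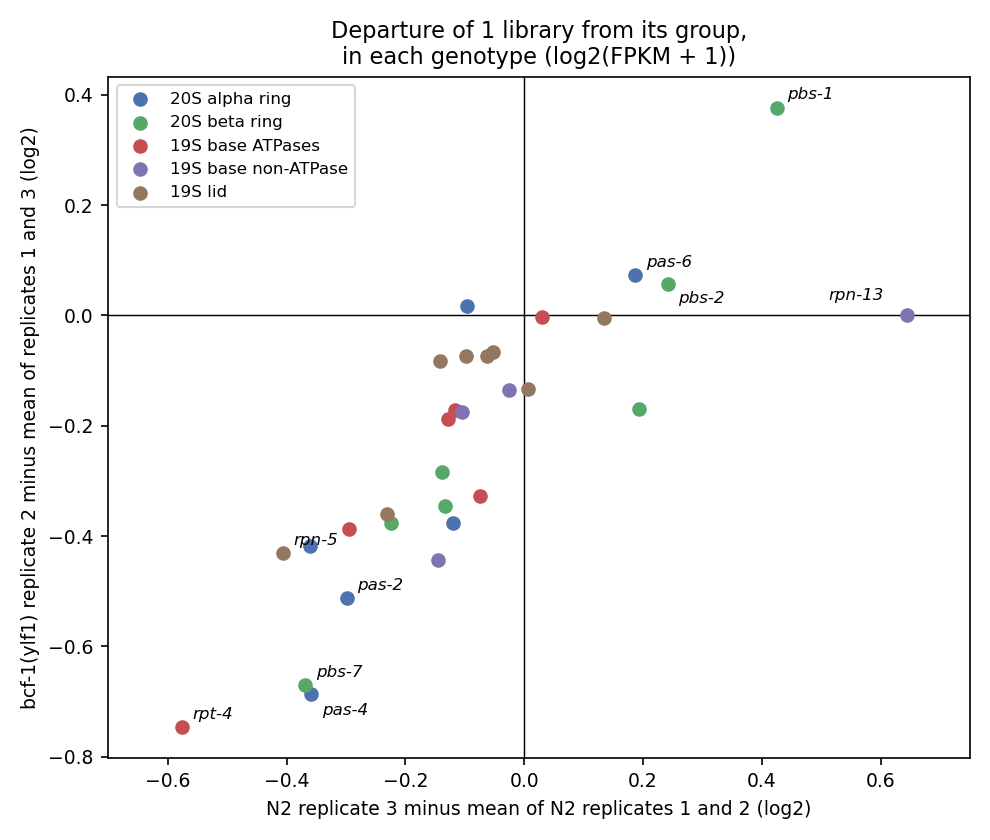
Each point is a tested subunit gene: on the x axis the log2(FPKM + 1) value in N2 replicate 3 minus the mean of N2 replicates 1 and 2, on the y axis that of bcf-1(ylf1) replicate 2 minus the mean of replicates 1 and 3. Of 31 genes, 22 lie at the lower left and pbs-1 at the upper right, while rpn-13 departs only along the x axis. This pair of libraries was picked after the data were seen.

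Genes that work with the proteasome were read from the same fit. Of 7 partners outside the naming pattern 0 passed: the activator gene psme-3 had the lowest change (-0.29, limma adjusted p = 0.116) and ecps-1, for an Ecm29-like scaffold, the highest (0.34, limma adjusted p = 0.08). The others were ubh-4 and dss-1, given above, the deubiquitinase gene usp-14 (-0.15), the assembly chaperone gene psmd-9 (0.24) and the arsenite-inducible aip-1 (0.10). After median-ratio scaling psme-3, ubh-4 and usp-14 fell. Of the 5 tested SKN-1A pathway genes 0 passed as well. skn-1 lay at 57.8, 55.1 and 56.2 FPKM in N2 and 64.5, 70.9 and 65.0 FPKM in the mutant, without overlap (log2 change 0.24, SE 0.11, limma adjusted p = 0.0993). These values do not separate the SKN-1A form from the other products of skn-1. The ER ubiquitin ligase gene sel-11 and its partner sel-1 had changes of 0.24 and 0.20, also without overlap, and the SKN-1A processing genes ddi-1 (protease) and png-1 (peptide N-glycanase) of 0.10 and 0.04. The median of this list, 0.20, was close to that of all tested genes, and after median-ratio scaling all 5 were slightly negative.

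Upstream of the proteasome, the ubiquitin genes ubq-1 and ubq-2 and the activating enzyme gene uba-1 did not pass (log2 changes of 0.08, -0.18 and 0.14). Of these 3 genes, 1 fell after median-ratio scaling (23% of all tested genes did) and 1 rose after quantile normalisation (24% did). The counts that follow stand against 34.6% of all tested genes that rose and 15% that fell. Of 22 tested conjugating enzyme genes 6 rose and 2 fell, with a median of 0.34. ubc-8 rose from 6.28 ± 0.979 to 11.9 ± 1.37 FPKM and ubc-13, known for lysine-63-linked chains, from 83.3 ± 3.30 to 109 ± 11.99 FPKM, while ubc-23 fell from 6.101 ± 0.681 to 3.50 ± 0.127 FPKM and ubc-14 from 54.8 ± 11.6 to 38.2 ± 2.57 FPKM (SD, n = 3). Of 18 tested deubiquitinase genes 4 rose: math-33, a relative of mammalian USP7, from 60.1 ± 4.69 to 81.2 ± 4.33 FPKM, and cyld-1, otub-4 and usp-48 by 0.42, 0.52 and 0.54 log2 units. Of 17 CDC-48 and shuttle genes only the chain-extending factor gene ufd-2 passed, rising by 0.41 log2 units, and ubxn-4, ubxn-3 and ubql-1 had changes of 0.27, 0.28 and 0.23. Of 5 tested genes of the COP9 signalosome, a complex with the same fold plan as the lid, csn-6 and csn-4 rose by 0.45 and 0.42 log2 units, while csn-2 and csn-1 had changes of -0.08 and 0.10. The 15 calls in these lists moved with single libraries: there were 3 without mutant replicate 1 or without mutant replicate 3, 5 without N2 replicate 2, N2 replicate 3 or mutant replicate 2, and there were 21 without N2 replicate 1. After median-ratio scaling only ubc-8 of the rises above passed, and the rises of the deubiquitinase, CDC-48 and COP9 genes were lost. Under that scaling 3 conjugating enzyme, 4 deubiquitinase and 1 COP9 genes fell (23% of all tested genes did). After quantile normalisation 6 of the 17 CDC-48 and shuttle genes rose (24% of all tested genes did).

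With the values as deposited, few calls were also found in other abundant complexes, against the 34.6% of all tested genes that rose. Of 8 genes of the cytosolic chaperonin CCT 1 passed (cct-4, log2 change 0.35) and of 78 cytosolic ribosomal protein genes 1 passed (rpl-42, log2 change 0.55). Both were named after their values were seen, and rpl-42 was low, with means of 2.46 FPKM in N2 and 4.11 FPKM in the mutant. Changes of the ribosomal protein genes ran from -0.87 to 1.69, so few calls there do not mean small changes. The list medians were 0.19 and 0.003 against the -0.04 of the proteasome. All 3 medians lay below the 0.24 of all tested genes. After quantile normalisation 5 of the 8 CCT genes and 3 of the 78 ribosomal protein genes rose (24% of all tested genes did). In the same setting 1 ribosomal protein gene fell (20.9% of all tested genes did). As deposited, every mutant library was above every N2 library in 5 of the 8 CCT genes, against 40.4% of all tested genes.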

How the data were processed

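Whole animals of 2 genotypes were measured, with 3 libraries each. The authors deposited 1 table with a value for each gene in each library. These deposited values were taken to be FPKM because they have decimals and unequal column sums; no unit is named in the header or the labels. Per the submitters' processing notes, fastp was used and WBcel235 was the build. For the aligner, quantifier, gene models and strandedness, nothing is given in the sources used here. The depth is unknown, so no counting interval is given. Symbols came from the RefSeq table of WBcel235, which matched 19959 rows; exons came from Ensembl's annotation of that build. No columns were left unmapped.

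The planned choice for normalised values was used: limma 3.58.1 in R 4.3.3 on log2(FPKM + 1), with a filter that kept genes reaching 1 FPKM in 3 or more libraries, genotype as the only term, a mean-variance trend, two-sided tests and Benjamini-Hochberg adjustment over all 13576 tested genes at a threshold of 0.05. The fit was tested on simulated data. There 0.403% of 1.25-fold, 3.64% of 1.5-fold, 32% of 2-fold and 73.2% of 3-fold changes passed the threshold, as did 0.0111% of unchanged values. Small changes were thus mostly missed, so a member that did not pass cannot be taken as unchanged. Far fewer genes were changed in the simulation than were called here, so these shares may not carry over. Folds are ratios of mean FPKM. Alternatives were a pseudocount of 0.1, no filter, a filter of 5 FPKM, median-ratio scaling, quantile normalisation, columns rescaled to equal sums, no trend, a replicate block and leaving out each library. The text names every member, dss-1, the partners, the SKN-1A genes and, in other pathway lists, up to 4 genes with the smallest p. Members and lists, including the adult, germline, oocyte, sperm, intestine and pharynx markers, were chosen with earlier results of these data known.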

Additional observations from a re-analysis of the deposited data

How the results depend on the processing

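Of the members, 9 passed the threshold after median-ratio scaling (0 higher, 9 lower), 3 after quantile normalisation (3 higher), and 2 with no filter and 2 with columns rescaled to equal sums (2 higher each, rpn-13 and rpn-6.2), against 1 as reported. Their median change moved to -0.31 under the first of these and to 0.083 under the second. It was -0.08 to 0.03 without single libraries, and 1 member was then called each time. The 15 pathway calls became 3 to 21 without single libraries and 4 without N2 replicate 3 and mutant replicate 2 together; over all genes the 6738 calls became 4517 to 7590 and 4272. With replicate number as a block, 5 pathway calls and 6172 calls over all genes were made, and no member's call changed; correlations of deviations between same-numbered libraries (0.0097, -0.07 and -0.28) do not pair them. Calls of ufd-2, ubc-13, ubc-14, math-33, cyld-1, csn-6 and csn-4 were lost under the block. Of 945 values of 63 named genes under 15 alternatives, 792 kept direction and side of the threshold, 65 lost the call, 22 gained one and 66 changed sign. The cause of these changes was not tested. Depth is unknown, which limits what can be said of low values.

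Signs changed after median-ratio scaling in pas-6 (-0.017), rpt-2 (-0.20), rpt-5 (-0.19), rpn-1 (-0.17), rpn-2 (-0.17), rpn-10 (-0.091), rpn-3 (-0.26), rpn-7 (-0.21), rpn-8 (-0.097), rpn-9 (-0.14), rpn-11 (-0.065), psmd-9 (-0.00639), aip-1 (-0.15), dss-1 (-0.17), skn-1 (-0.019), sel-11 (-0.020), sel-1 (-0.053), ddi-1 (-0.16), png-1 (-0.21), uba-1 (-0.12), ubq-1 (-0.18), ubql-1 (-0.034) and csn-1 (-0.15). They changed after quantile normalisation in pas-1 (0.11), pas-2 (0.010), pbs-1 (0.18), pbs-2 (0.074), pbs-5 (0.052), pbs-6 (0.068), pbs-7 (0.082), rpt-1 (0.083), rpt-3 (0.12), rpt-6 (0.071), rpn-12 (0.080), aip-1 (-0.015), png-1 (-0.11), ubq-2 (0.14) and csn-1 (-0.047). They changed with columns rescaled to equal sums in pbs-1 (0.00774), rpt-3 (0.021) and rpt-6 (0.00923). Without N2 replicate 3 and mutant replicate 2 together they changed in pbs-6 (0.071), rpt-3 (0.065) and rpn-3 (-0.017). Leaving out single libraries gave ranges that include both signs in pbs-1 (-0.16 to 0.11), pbs-6 (-0.13 to 0.014), pbs-7 (-0.31 to 0.061), rpt-3 (-0.090 to 0.090), rpt-6 (-0.13 to 0.098), rpn-3 (-0.045 to 0.078), rpn-6.1 (-0.17 to 0.033), ddi-1 (-0.00931 to 0.24), png-1 (-0.033 to 0.11), csn-2 (-0.19 to 0.050) and csn-1 (-0.077 to 0.26).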
